A study of Mus musculus with 12 samples.

Results

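The response of mouse Th17 cells to Stattic alone was measured by RNA sequencing in 6 of the 12 libraries of the series, 3 from cells given Stattic and 3 from cells given no inhibitor (None). The libraries were chosen by their titles, with no use of measured values. All came from T cells of wild-type (WT) lymph nodes that had been differentiated in culture from naive cells toward the Th17 state, a helper T cell type named for its cytokine IL-17. Inhibitors acted for 4 h. The labels give no dose of Stattic, do not say whether None received a solvent, and name no culture or animal for any replicate. Each p-value is thus a statement about the scatter among these libraries, part or all of which may be technical. The other 6 libraries came from the same kind of cells given Kira8, an inhibitor of the endoplasmic reticulum stress sensor IRE1alpha, or Kira8 with Stattic (Kira8+Stattic). They entered here through the shared estimate of spread, and as a second, separate comparison of cells with and without Stattic.

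Stattic is a small molecule made to block the SH2 domain of STAT3, through which this transcription factor docks on activated cytokine receptors and pairs with itself. In Th17 cells STAT3 carries the signals of IL-23, IL-6 and IL-21 and is needed for the expression of Il17a and Il17f. Stattic is also an electrophile that reacts with thiol groups of proteins. Cells answer damaged proteins through HSF1, which switches on chaperone genes, and electrophiles through NRF2, which switches on antioxidant genes. The integrated stress response, which works through ATF4 and CHOP, answers unfolded proteins, lack of amino acids and other insults by slowing translation.

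Total counts were 55, 9.28 and 53.7 M in Stattic replicates 1, 2 and 3, against 62.9, 63 and 63.3 M in None replicates 1, 2 and 3. Stattic replicate 2 stood apart. Gm10800, a gene model of repeat sequence, took 19.1% of its counts, against at most 0.00656% in the other 5 libraries, and mitochondrial transcripts took 10.7%, against 3.38% to 5.22%. Olfactory receptor genes, which T cells do not express, had a count for 32.7% of their number in it, against 4.07% to 7.05% in the others. Its Spearman correlation with Stattic replicates 1 and 3 across 17324 genes was 0.187 and 0.188, whereas Stattic replicates 1 and 3 correlated at 0.987 and the None libraries at 0.981 to 0.990 (genes are not independent replicates). Values lead without this library (n = 2 Stattic and 3 None), and list counts and calls are given again with all 3 Stattic libraries. Levels are CPM, a gene's counts relative to the library's total, scaled by TMM, listed in the order of replicates 1, 2 and 3, so that the middle Stattic value is always the outlying library. In that library 3 counts correspond to 0.323 CPM, against 0.0474 to 0.0559 CPM in the other 5, for counting error only. Its level lay below every None library also for genes that were above None in Stattic replicates 1 and 3, such as Stat3, Jun, Mcl1 and Ctla4. For others, such as Hspa1b and Bag3, it lay above None. A value below None in that library thus adds little to a fall seen in replicates 1 and 3. Given its counts at olfactory receptor genes, a value above None adds little to the rise of a near-silent gene. Changes are log2 changes, Stattic minus None, ± standard error, from edgeR's quasi-likelihood test, and called genes are those with p under 0.05 after Benjamini-Hochberg adjustment across every gene in the test.

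The cells carried the T cell and Th17 markers of their label in both groups, with some shifts. The 9 T cell markers summed to 3350, 1472 and 2566 CPM with Stattic, against 3473, 2930 and 2913 CPM in None. Cd3d was higher (0.86 ± 0.19, adjusted p = 0.00349) and Cd5 lower (-0.88 ± 0.19, adjusted p = 0.00292); without Stattic replicate 1 Cd3d was no longer called (0.62, adjusted p = 0.053). The 9 Th17 markers summed to 1067, 242 and 1096 CPM with Stattic, against 1853, 3658 and 1572 CPM in None. Markers of B cells, which lymph nodes hold in number, were present at a low level: the 13 genes together had 143, 129 and 75.5 CPM with Stattic, against 421, 352 and 340.4 CPM in None, and 12 of the 13 were lower with Stattic (7 were when Stattic replicate 3 was left out, and 1 was with all 3 Stattic libraries). Markers of CD8 T and NK cells summed to 830.1, 256 and 652 CPM with Stattic, against 1530, 2158 and 1265 CPM in None, with 1 of 12 tested higher and 4 lower (2 lower and none higher without Stattic replicate 3; 1 higher and 1 lower with all 3 Stattic libraries). Without Stattic replicate 2, 20.1% of all genes were higher and 18.9% lower, and with all 3 Stattic libraries 2.59% and 2.87%. In bulk RNA, fewer cells of a type and less RNA per cell cannot be told apart. Myeloid markers summed to 61.8, 39.6 and 46.1 CPM with Stattic, against 36.9, 58 and 49.8 CPM in None, stromal and endothelial markers to 60.8, 221 and 47.4 CPM with Stattic, against 76.1, 44.4 and 78.8 CPM in None, and the 6 erythroid markers to less than 1 CPM in every library. Adding Stattic replicate 2 left no call for Cd3d (log2 1.03, adjusted p = 0.0643) and Cd5 (log2 -1.26, adjusted p = 0.099).

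Without Stattic replicate 2, 8281 of 21239 genes tested (39% called) changed, 4270 higher (20.1%) and 4011 lower (18.9%). The median log2 change over all genes was 0.08, so the scaling left the bulk of the genes level. Among the called genes, 3076 (14.5% of those tested) were at least 2-fold higher and 2448 (11.5%) at least 2-fold lower. At 8-fold or more the split was uneven, with 1126 genes higher (5.3%) and 272 lower (1.28%). Most of those 1126 genes were near silent: 837 had a mean under 1 CPM, and 359 had no count in any None library, where a fitted fold change depends on the prior count. Among genes with a mean of at least 50 CPM, 33 of 4381 were at least 8-fold higher and 18 at least 8-fold lower. Protein-coding genes with a mean of 5 to 50 CPM were lower in 35.4% and higher in 18.9%. Those with a mean of at least 50 CPM were lower in 31.9% and higher in 25.4%. At these levels the share lower was thus above the 18.9% of all genes. The 2 Stattic libraries lay above all None libraries for 6554 genes (30.9%) and below them for 5839 (27.5%).

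**Figure D1:**
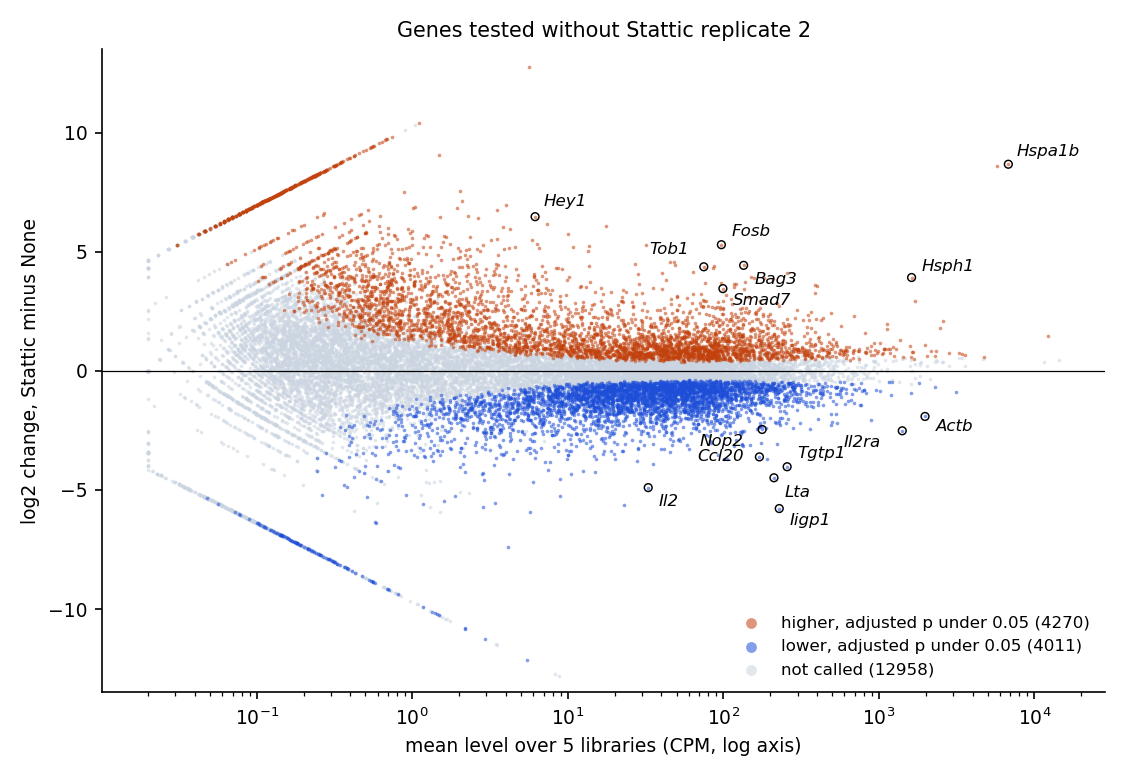
Each point is 1 of 21239 genes tested without Stattic replicate 2, with its mean level over 5 libraries on a log axis (CPM; means under 0.02 are drawn at 0.02) and its log2 change, Stattic minus None. Hspa1b, with a change of 8.67, stands at the top right beside Hspa1a (8.58, not labelled), and the straight diagonal streaks at the left are genes with no count in one of the groups.

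With all 3 Stattic libraries the common dispersion of the fit was 0.699, against 0.143 without replicate 2. Then 1199 of 21964 genes (5.46%) were called, 568 higher (2.59%) and 631 lower (2.87%). All 1199 were also called, in the same direction, without replicate 2, and they make up 14.5% of the calls there. These counts depended on the libraries and the settings. Without None replicate 1, 2 or 3 in turn the all-library fit called 76, 34 and 37 genes higher and 194, 65 and 65 lower, and without Stattic replicate 1 it called 1336 higher and 771 lower. Without Stattic replicate 3 it called 427 higher and 286 lower. Leaving Stattic replicate 3 out of the fit that already lacks replicate 2 brought the calls to 2889 higher and 2645 lower. The estimate of spread also rests on the Kira8 libraries: with Kira8 replicate 2, the library of mostly mitochondrial counts, kept in the fit, 290 genes were higher and 354 lower. Scaling by library size alone moved the split there to 3514 higher and 4755 lower, 42.5% higher in place of 51.6%.

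**Figure D2:**
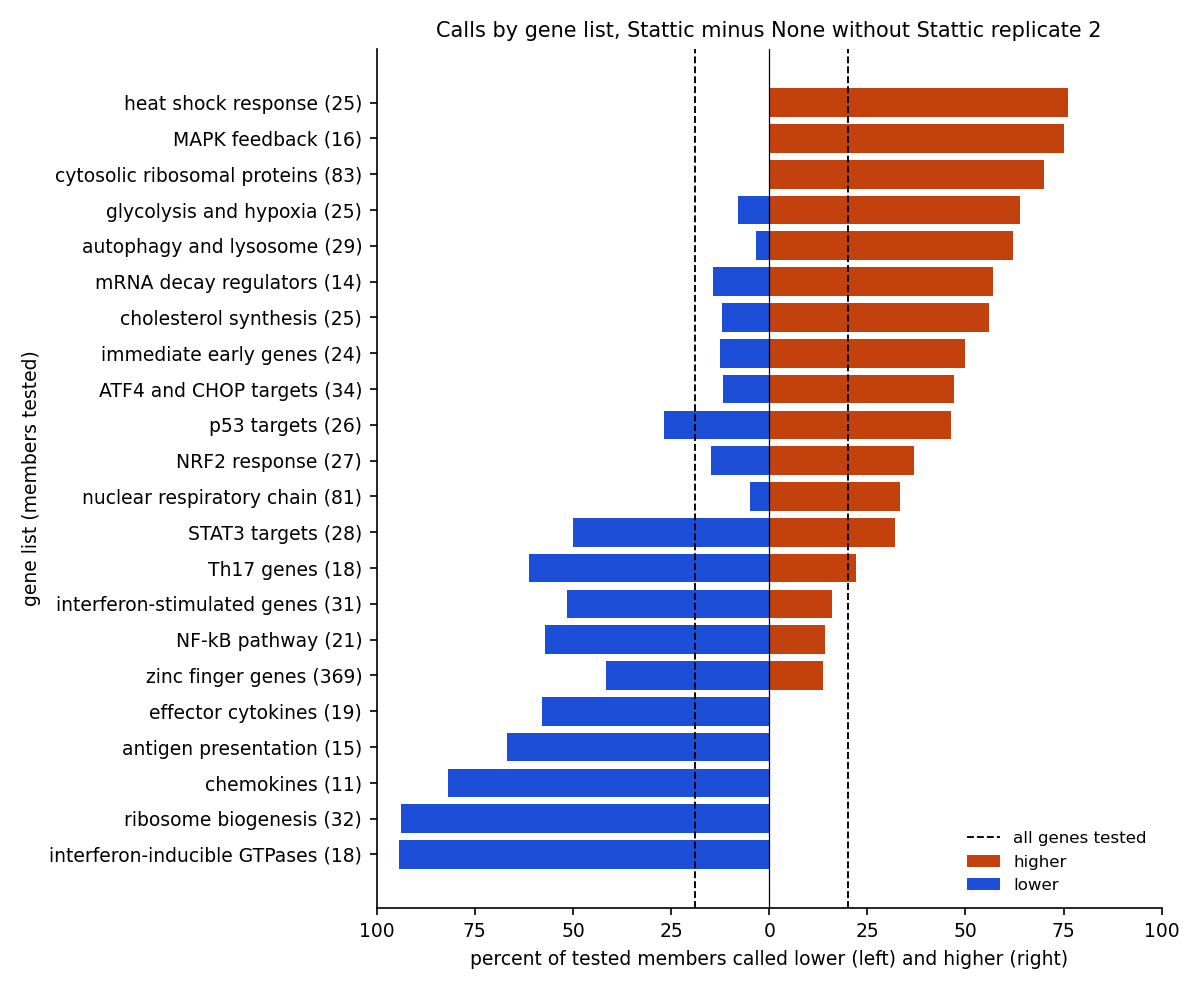
Bars give the percent of tested members of each gene list called higher (right) and lower (left) without Stattic replicate 2, with the number of members tested in brackets; dashed lines mark the 20.1% and 18.9% of all genes. Heat shock genes lead the higher side with 76% and interferon-inducible GTPases the lower side with 94.4%.

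Most heat shock genes tested rose, and Hspa1a and Hspa1b, the inducible HSP70 genes, rose more than any other gene with a mean of at least 50 CPM. Of 25 heat shock genes tested, 19 were higher and none lower, against 20.1% of all genes higher, and their median change was 1.87, against 0.08 for all genes. With all 3 Stattic libraries 7 were higher and none lower, against 2.59% of all genes. Hspa1b had 12770, 1435 and 21070 CPM with Stattic, against 5.13, 49.2 and 70.1 CPM in None. All 3 Stattic libraries lay above all None libraries, the outlying replicate 2 by the least, and the change was 8.67 ± 0.92, adjusted p = 2.77e-05 (8.15, adjusted p = 0.0158 with all 3 Stattic libraries). Hspa1a, a near-identical neighbour with which it may share reads, had 11140, 1489 and 17560 CPM with Stattic, against 4.16, 45 and 63.5 CPM in None, a change of 8.58 ± 0.94, adjusted p = 3.34e-05 (8.07, adjusted p = 0.0153 with all 3). None replicate 1 was the lowest for both and None replicate 3 the highest; without None replicate 3 the changes were 9.28 and 9.19. Together these genes took 2.23%, 0.266% and 3.74% of all counts with Stattic, against 0.00103%, 0.00976% and 0.014% in None.

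The 250 bases before the start of Hspa1b and Hspa1a are printed because these genes lead the response. They come from RefSeq's GRCm38.p6 promoters, 5′ to 3′ on the coding strand, with the heat shock element letters GAANNTTC (a pair of the inverted units that HSF1 binds, the same letters on both strands) in capitals.
Hspa1b, chr17:34959239-34959488, minus strand: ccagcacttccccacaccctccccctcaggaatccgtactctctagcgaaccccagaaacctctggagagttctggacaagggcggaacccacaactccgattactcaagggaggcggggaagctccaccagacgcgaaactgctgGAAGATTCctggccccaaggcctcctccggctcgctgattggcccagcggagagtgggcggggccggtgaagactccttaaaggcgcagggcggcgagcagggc
Hspa1a, chr17:34972157-34972406, minus strand: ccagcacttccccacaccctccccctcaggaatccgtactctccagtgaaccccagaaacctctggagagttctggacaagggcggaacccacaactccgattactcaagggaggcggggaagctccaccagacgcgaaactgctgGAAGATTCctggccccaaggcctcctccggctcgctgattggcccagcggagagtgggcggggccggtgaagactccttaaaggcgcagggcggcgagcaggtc
The stretches differ at 3 of 250 bases, and the match begins 104 bases before the start in both. GAANNTTC was found in 43.3% of 30 promoters of heat shock list genes, against 5.99% of 15814 promoters of genes tested and 7.86% of all 32851 in the table, each 300 bases long with 50 bases after the start. A longer form, in which another GAA unit follows those letters after a gap of any 2 bases, searched on both strands, was in 16.7% of the list's promoters and 0.468% of those tested. Promoters of 12496 tested genes were matched by symbol. A match is a description of the sequence, not a measured binding site.

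Co-chaperones of HSP70 rose with it. Bag3, which releases substrates from HSP70 and sends them to autophagy, had 279.6, 50 and 352 CPM with Stattic, against 13.5, 14.5 and 15.9 CPM in None. Dnajb1, which stimulates HSP70's ATPase, had 764, 132 and 1011 CPM with Stattic, against 68.7, 78.2 and 78.5 CPM in None. For both genes all 3 Stattic libraries were above None; the changes were 4.43 ± 0.30, adjusted p = 1.82e-06 for Bag3 (3.96, adjusted p = 0.0142 with all 3) and 3.56 ± 0.24, adjusted p = 1.82e-06 for Dnajb1 (3.08, adjusted p = 0.0291). Hsph1, an HSP110 exchange factor for HSP70, had 2921, 181 and 4456 CPM with Stattic, against 160, 334 and 238 CPM in None, so that Stattic replicate 2 fell among the None values (3.92 ± 0.39, adjusted p = 1.89e-05; 3.37, adjusted p = 0.0646 with all 3). Hsp90aa1, the inducible cytosolic HSP90, had 3876, 332 and 5674 CPM with Stattic, against 939, 1367 and 1099 CPM in None: replicates 1 and 3 were above None and replicate 2 below it (2.07 ± 0.29, adjusted p = 0.000198). The J-domain gene Dnajb4 changed by 3.83 ± 0.20, adjusted p = 4.63e-07, and Hspa2, an HSP70 gene known for its role in the testis, by 5.28 ± 0.30, adjusted p = 7.43e-07. The constitutive HSP70 gene Hspa8, named after its value was seen, did not pass the test (0.51 ± 0.24, adjusted p = 0.111). Hsp90aa1 (log2 1.54, adjusted p = 0.224) was not called when Stattic replicate 2 was included. Dnajb4 and Hspa2 passed the test in that fit too. For Hspa8 (log2 0.03, adjusted p = 0.978), in brackets with all 3 Stattic libraries, there was no call in either fit.

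**Figure D3:**
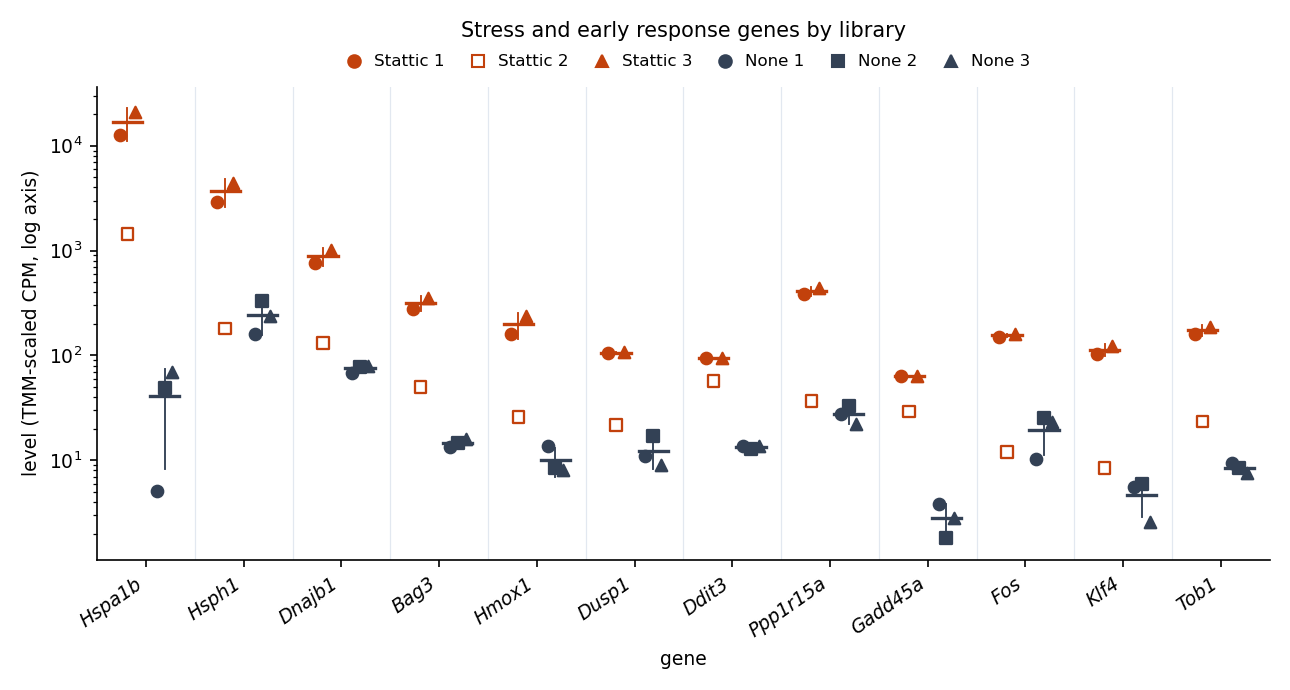
TMM-scaled CPM on a log axis for 12 stress and early response genes in each of the 6 libraries (Stattic left of None for each gene); bars are the mean ± SD of Stattic replicates 1 and 3 and of the 3 None libraries, and the open square is Stattic replicate 2. Stattic replicates 1 and 3 lie above all None libraries for all 12 genes, and replicate 2 lies among the None values for Hsph1 and Fos.

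The antioxidant genes of the NRF2 list moved in both directions. Hmox1, haem oxygenase, had 161, 25.8 and 239.5 CPM with Stattic, against 13.6, 8.45 and 8.04 CPM in None. Its 3 Stattic libraries were all above None (4.32 ± 0.39, adjusted p = 9.09e-06; 3.82, adjusted p = 0.0237 with all 3). Sqstm1, the autophagy receptor p62, rose by 1.98 ± 0.21, adjusted p = 3.16e-05. Of 27 list members tested, 10 were higher and 4 lower, and the median change was 0.34; without Stattic replicate 3, 5 were higher, and with all 3 Stattic libraries 1 was higher and 2 were lower. Without Stattic replicate 2, 37% of the list were higher and 14.8% lower, against 20.1% and 18.9% of all genes. Txnrd1, thioredoxin reductase, had 156, 13.9 and 255 CPM with Stattic, against 188, 267 and 216 CPM in None, with replicate 1 below None and replicate 3 among its values (-0.12 ± 0.29, adjusted p = 0.762). Gclm, a subunit of the enzyme that starts glutathione synthesis, had 28.6, 17.3 and 39.1 CPM with Stattic, against 35.2, 31.8 and 28.8 CPM in None, with replicate 1 just below None and replicate 3 above it (0.08 ± 0.21, adjusted p = 0.787). Srxn1, sulfiredoxin, had 37.3, 0.474 and 66.5 CPM with Stattic, against 19, 39.2 and 16 CPM in None; it was called (1.07 ± 0.38, adjusted p = 0.0432) but the groups overlapped, and without Stattic replicate 3 (adjusted p = 0.387), None replicate 1 (0.1) or None replicate 3 (0.129) the call was lost. Gsr, glutathione reductase, fell by 1.22 on the log2 scale (adjusted p = 0.000327) and the exporter gene Abcc4 by 1.67 (adjusted p = 0.000114). Mt1, a metallothionein that answers metals and oxidants, had 61.5, 18.5 and 48.3 CPM with Stattic, against 48.4, 36.8 and 31.2 CPM in None, and its change of 0.50 ± 0.23, adjusted p = 0.107 did not pass the test. The zinc transporter genes Slc30a1 (1.33, adjusted p = 8.43e-05) and Slc39a1 (-1.53, adjusted p = 2.56e-05) changed in opposite directions. Of 10 metallothionein and zinc genes 1 was higher (2 without None replicate 1) and 3 were lower (0 higher and 2 lower with all 3 Stattic libraries). Not called with the outlying library included were Sqstm1 (adjusted p = 0.123), Srxn1 (log2 0.49, adjusted p = 0.774) and Slc30a1 (log2 1.08, adjusted p = 0.064). The call was kept in that fit by Gsr, Abcc4 and Slc39a1. For Txnrd1 (log2 -0.66, adjusted p = 0.577), Gclm (log2 -0.17, adjusted p = 0.759) and Mt1 (log2 0.14, adjusted p = 0.843), in brackets with all 3 Stattic libraries, there was no call in either fit.

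Of 34 targets of ATF4 and CHOP in the integrated stress response, 16 rose, among them Ddit3 and Ppp1r15a. Ddit3, which encodes CHOP, had 94.8, 56.9 and 94.2 CPM with Stattic, against 13.8, 12.8 and 13.7 CPM in None. The groups did not overlap in any library, and the change was 2.81 ± 0.18, adjusted p = 1.35e-06 (2.61, adjusted p = 0.0052 with all 3). Ppp1r15a, the GADD34 phosphatase subunit that restarts translation, had 382, 36.6 and 441 CPM with Stattic, against 27.8, 33 and 22.2 CPM in None, and again all Stattic libraries were above None (3.89 ± 0.21, adjusted p = 5.18e-07; 3.37, adjusted p = 0.0321). Atf3 had 126, 0.474 and 139 CPM with Stattic, against 18.9, 32.7 and 14.6 CPM in None, with replicate 2 below every None value (2.59 ± 0.35, adjusted p = 0.00015; 2.01, adjusted p = 0.272 with all 3). Sesn2, which restrains mTORC1, rose by 2.93 ± 0.23, adjusted p = 4.12e-06, and Ddit4, which does so too, by 2.43 ± 0.20, adjusted p = 4.69e-06. In that list 4 were lower and 14 were not called, with a median of 0.57 (3 higher and 1 lower with all 3 Stattic libraries). Its shares without Stattic replicate 2 were 47.1% higher and 11.8% lower, against 20.1% and 18.9% of all genes. Wars, a tRNA synthetase of the same list, fell by 1.77 (adjusted p = 3.15e-05). Without Stattic replicate 1, or without replicate 3, 2 members were called lower in place of 4. In the fit that includes Stattic replicate 2, Sesn2 (log2 2.35, adjusted p = 0.219) and Ddit4 (log2 1.94, adjusted p = 0.0781) did not pass the test. Wars was called there too.

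Chaperones of the endoplasmic reticulum did not follow the cytosolic ones. Of 22 tested, 2 were higher and 9 lower (median -0.37), and with all 3 Stattic libraries 1 was higher and 2 were lower. Without Stattic replicate 2 the shares were 9.09% higher and 40.9% lower, against 20.1% and 18.9% of all genes. Protein-coding genes were lower in 35.4% at a mean of 5 to 50 CPM and in 31.9% from 50 CPM, so the share lower was not far from these. Dnajb9, a reticulum co-chaperone, had 124, 25.7 and 169 CPM with Stattic, against 20.4, 28.4 and 18.5 CPM in None and rose (2.71 ± 0.22, adjusted p = 4.98e-06). Pdia4, a protein disulfide isomerase, had 37.5, 53.8 and 43.8 CPM with Stattic, against 122, 145 and 94.3 CPM in None. All 3 Stattic libraries were below None (-1.57 ± 0.19, adjusted p = 7.29e-05; -1.42, adjusted p = 0.0197 with all 3). Hyou1, the HSP110-type chaperone of the reticulum, fell by 1.40 (adjusted p = 0.000454). Dnajb9 and Hyou1 passed the test with Stattic replicate 2 included too.

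Several genes tied to growth arrest rose. Gadd45a, a p53 target that binds proliferating cell nuclear antigen, had 64, 29.1 and 63.2 CPM with Stattic, against 3.86, 1.81 and 2.82 CPM in None. The 3 Stattic libraries lay above None without overlap (4.49 ± 0.28, adjusted p = 1.21e-06; 4.20, adjusted p = 0.00452 with all 3). Tob1, an antiproliferative protein of T cells that recruits the deadenylase complex, had 160.2, 23.3 and 189 CPM with Stattic, against 9.37, 8.47 and 7.48 CPM in None, and its adjusted p of 9.64e-08 came with a change of 4.37 ± 0.16 (3.88, adjusted p = 0.0133). Cdkn1a, the p21 inhibitor of cyclin-dependent kinases, had 255, 32.6 and 262 CPM with Stattic, against 86.6, 80.5 and 73.4 CPM in None; replicates 1 and 3 were above None and replicate 2 below it (1.69 ± 0.20, adjusted p = 5.26e-05; 1.19, adjusted p = 0.213). Trp53inp1, a p53-induced stress protein, rose by 2.44 ± 0.18, adjusted p = 2.94e-06, whereas Aen, a p53-induced exonuclease, fell by 2.68 (adjusted p = 4.45e-06). Of 26 p53 targets, 12 (46.2%) were higher and 7 (26.9%) lower with a median of 0.58, against 20.1% and 18.9% of all genes. The share lower was below the 35.4% of protein-coding genes with a mean of 5 to 50 CPM and the 31.9% from 50 CPM. With all 3 Stattic libraries 1 p53 target was higher and 2 were lower, against 2.59% and 2.87% of all genes. Other regulators of mRNA decay that rose were Zfp36, which destabilises cytokine mRNAs (2.31 ± 0.22, adjusted p = 1.19e-05), and Btg2 (1.25 ± 0.15, adjusted p = 5.99e-05). Klf3, a repressor of the quiescence list, rose by 2.56 ± 0.22, adjusted p = 6.52e-06, and Slfn2, which protects resting T cells, fell by 2.45 (adjusted p = 4.36e-06). Once Stattic replicate 2 was added, no call was left for Trp53inp1 (log2 2.00, adjusted p = 0.0544), Zfp36 (log2 1.87, adjusted p = 0.0662) and Btg2 (log2 0.70, adjusted p = 0.559). Aen, Klf3 and Slfn2 kept the call.

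Of 24 immediate early genes, which are transcribed within minutes of a stimulus, 12 were higher 4 h after Stattic and 3 lower. These are 50% and 12.5%, against 20.1% higher and 18.9% lower of all genes. Fos had 151, 12 and 159 CPM with Stattic, against 10.2, 25.4 and 23 CPM in None. Replicates 1 and 3 were above None and replicate 2 among its values (2.99 ± 0.31, adjusted p = 2.13e-05; 2.46, adjusted p = 0.0791 with all 3). Fosb had 199, 29.3 and 268 CPM with Stattic, against 3.02, 10.2 and 4.63 CPM in None, all Stattic libraries above None (5.29 ± 0.40, adjusted p = 3.75e-06; 4.80, adjusted p = 0.0133); without None replicate 2, the highest of its group, the change was 5.93. Klf4, a factor that holds T cells in rest, had 102, 8.41 and 123 CPM with Stattic, against 5.53, 5.95 and 2.6 CPM in None, and Arc, best known in neurons, had 84.4, 16.7 and 128 CPM with Stattic, against 3.98, 5.31 and 3.98 CPM in None. Both were above None in all 3 Stattic libraries, with changes of 4.58 ± 0.29, adjusted p = 1.35e-06 and 4.59 ± 0.31, adjusted p = 1.68e-06. Jun rose by 1.88 ± 0.20, adjusted p = 2.72e-05, with replicate 2 at 18.1 CPM, under every None value. Myc went the other way, with 174, 19.8 and 179 CPM with Stattic, against 563, 538 and 381 CPM in None (-1.48 ± 0.20, adjusted p = 0.000123; -1.99, adjusted p = 0.0859 with all 3). Without Stattic replicate 1, 1 was lower, and with all 3 Stattic libraries 2 were higher and none lower. Adding Stattic replicate 2 left no call for Jun (log2 1.32, adjusted p = 0.294). Called with that library as well were Klf4 and Arc.

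Most negative regulators of MAP kinases tested (75%) rose, against 20.1% of all genes called higher. Of 16 DUSP, SPRY and SPRED genes, 12 were higher and none lower, with a median of 1.40; with all 3 Stattic libraries 5 were higher and none lower. Dusp1, a nuclear phosphatase of JNK and p38, had 106, 21.8 and 107 CPM with Stattic, against 11, 16.9 and 8.98 CPM in None, above None in all 3 Stattic libraries (3.11 ± 0.24, adjusted p = 3.77e-06; 2.67, adjusted p = 0.0275). Dusp8 had 9.72, 11.6 and 8.37 CPM with Stattic, against 0.729, 0.798 and 0.89 CPM in None, with replicate 2 the highest (3.49 ± 0.36, adjusted p = 2.10e-05; 3.62, adjusted p = 0.00882). Spred2, which blocks RAF activation, rose by 2.13 ± 0.17, adjusted p = 4.69e-06, and Rasgef1b, an exchange factor of small GTPases, by 4.43 ± 0.19, adjusted p = 2.01e-07. Rasgef1b had 112, 37.7 and 117 CPM with Stattic, against 4.69, 5.92 and 5.29 CPM in None, with no overlap in any library. Spred2 (log2 1.58, adjusted p = 0.201) was not called when Stattic replicate 2 was included. Rasgef1b passed the test in that fit too.

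Some of the largest rises among genes of at least 5 CPM were in regulators of transcription and signalling. Hey1, a Notch target repressor, had 13.6, 16.7 and 16.8 CPM with Stattic, against 0.172, 0.153 and 0.181 CPM in None. Here the outlying replicate 2 was at the level of the other Stattic libraries (6.47 ± 0.36, adjusted p = 5.66e-07; 6.52, adjusted p = 0.00266 with all 3). Since 32.7% of olfactory receptor genes had a count in that library, its value adds little to the rise of a gene near silent in None. Fst, which binds activin, had 15.6, 9.6 and 15.7 CPM with Stattic, against 0.686, 0.215 and 0.392 CPM in None. It did not overlap None in any library, with a change of 5.17 ± 0.40, adjusted p = 3.82e-06. Smad7, the inhibitor of TGF-beta receptors, had 204, 35.4 and 233 CPM with Stattic, against 21.9, 18.2 and 19.7 CPM in None (3.45 ± 0.16, adjusted p = 2.12e-07; 2.98, adjusted p = 0.0229). Of 20 TGF-beta pathway genes 10 were higher and 2 lower, and of 18 Notch pathway genes 9 were higher and 2 lower; without Stattic replicate 3, 1 was lower in each list, as it was in the Notch list without Stattic replicate 1 or None replicate 2. The shares were 50% higher and 10% lower for TGF-beta, and 50% and 11.1% for Notch, against 20.1% and 18.9% of all genes. The TGF-beta list had 3 higher and 0 lower with all 3 Stattic libraries, and the Notch list 2 higher and 0 lower with all 3 Stattic libraries. Notch2, a receptor, fell by 1.19 (adjusted p = 0.00186). Lrrn4cl (6.15 ± 0.39), Arl4d (5.47 ± 0.31) and Fhdc1 (5.02 ± 0.40) rose in replicates 1 and 3 but had no count in replicate 2. Ahr, the receptor for aryl hydrocarbons that Th17 cells express, had 179, 59 and 221 CPM with Stattic, against 33.5, 29.7 and 34.7 CPM in None (2.62 ± 0.18, adjusted p = 1.68e-06; 2.23, adjusted p = 0.0241), and its target Tiparp had 262, 7.58 and 331 CPM with Stattic, against 25.2, 26.6 and 31 CPM in None (3.42 ± 0.20, adjusted p = 6.89e-07). These were the only 2 higher of 6 AHR list genes tested, and 2 other targets were lower (median of the list -0.37). The lower count ranged over 0 to 2 with 1 library left out. With all 3 Stattic libraries 1 gene of that list was higher and 0 lower. Not called with the outlying library included were Notch2 (log2 -1.54, adjusted p = 0.0608), Lrrn4cl (log2 5.57, adjusted p = 0.0539), Arl4d (log2 4.89, adjusted p = 0.0638), Fhdc1 (log2 4.44, adjusted p = 0.0824) and Tiparp (log2 2.86, adjusted p = 0.087). The call was kept in that fit by Fst.

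The study targets STAT3, whose mRNA and target genes moved in both directions. Stat3 itself (ENSMUSG00000004040, chromosome 11, 100885098 to 100939540 of GRCm38, minus strand) had 536, 47.5 and 494 CPM with Stattic, against 309.5, 338 and 368 CPM in None. Replicates 1 and 3 were above None and replicate 2 far below it; the change was 0.60 ± 0.15, adjusted p = 0.00739, or 0.09, adjusted p = 0.944 with all 3, and without Stattic replicate 1 the adjusted p was 0.0593. The mRNA level does not report STAT3 phosphorylation, which is what Stattic acts on. Socs3, the feedback inhibitor that STAT3 switches on, had 122, 21.8 and 130.3 CPM with Stattic, against 153, 110.5 and 154 CPM in None, with overlap and no call (-0.14 ± 0.17, adjusted p = 0.54). Bcl3, an NF-kB cofactor and STAT3 target, had 45.7, 6.28 and 31.7 CPM with Stattic, against 138, 77.4 and 96.2 CPM in None, below None in all 3 Stattic libraries (-1.43 ± 0.27, adjusted p = 0.00147; -1.89, adjusted p = 0.0789). Bcl6, a repressor, had 139, 1.9 and 173 CPM with Stattic, against 12.5, 22.9 and 14.1 CPM in None; replicates 1 and 3 were above None (3.24 ± 0.25, adjusted p = 3.87e-06; 2.66, adjusted p = 0.126), as they were for Vegfa (3.04 ± 0.24, adjusted p = 4.37e-06) and Nfkbiz (1.94 ± 0.20, adjusted p = 2.53e-05). Of 28 STAT3-bound or STAT3-induced genes, 14 were lower and 9 higher (median -0.41), and with all 3 Stattic libraries 4 were lower and 1 was higher. Both shares, 50% lower and 32.1% higher, are above those of all genes, 18.9% lower and 20.1% higher. Protein-coding genes with a mean of at least 50 CPM were lower in 31.9% and higher in 25.4%. Named after their values were seen, Il6st, the shared receptor chain of the IL-6 family, rose by 2.48 ± 0.29, adjusted p = 5.36e-05, and the cytokine gene Il10 had a change of -1.73 ± 0.27, adjusted p = 0.00038. In the fit that includes Stattic replicate 2, Vegfa (log2 2.51, adjusted p = 0.0684), Nfkbiz (log2 1.37, adjusted p = 0.304) and Il6st (log2 1.98, adjusted p = 0.0966) did not pass the test. Il10 was called there too. For Socs3 (log2 -0.61, adjusted p = 0.459), in brackets with all 3 Stattic libraries, there was no call in either fit.

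Within the JAK-STAT pathway, Cish, a feedback gene of STAT5, had 179.6, 37.8 and 182 CPM with Stattic, against 442, 453 and 452 CPM in None. All 3 Stattic libraries were below None (-1.31 ± 0.14, adjusted p = 3.20e-05; -1.75, adjusted p = 0.0665 with all 3). Socs1 had 27.2, 36.9 and 18.8 CPM with Stattic, against 127, 66 and 90.4 CPM in None, also without overlap (-2.04 ± 0.31, adjusted p = 0.000293; -1.78, adjusted p = 0.0282), and Socs2 fell by 1.54 (adjusted p = 0.000669). Of 18 feedback genes 2 were higher (1 without None replicate 1, none without Stattic replicate 3) and 6 lower; of 11 JAK and STAT genes 4 were higher and 4 lower; without Stattic replicate 1, 1 was higher. Without Stattic replicate 2, 11.1% of feedback genes were higher and 33.3% lower, and 36.4% of JAK and STAT genes each way. Of all genes 20.1% were higher and 18.9% lower, and of protein-coding genes with a mean of at least 50 CPM 25.4% and 31.9%. There were 0 higher and 1 lower with all 3 Stattic libraries among the feedback genes, and 0 higher and 0 lower with all 3 Stattic libraries among the JAK and STAT genes. Stat5a changed by -1.10 ± 0.18, adjusted p = 0.000504, and the kinase gene Jak1 rose by 1.12 ± 0.18, adjusted p = 0.000507. The test was not passed with all 3 Stattic libraries by Socs2 (log2 -0.97, adjusted p = 0.153), Stat5a (log2 -1.66, adjusted p = 0.21) and Jak1 (log2 0.62, adjusted p = 0.512).

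Interferon-inducible GTPases, which attack the vacuoles of intracellular parasites, fell nearly without exception. Of 18 tested, 17 were lower and none higher, against 18.9% of all genes lower, with a median of -2.69; with all 3 Stattic libraries 10 were lower, against 2.87%. Iigp1 had 8, 1.78 and 5.7 CPM with Stattic, against 338, 333 and 459 CPM in None. All Stattic libraries were far below None (-5.78 ± 0.31, adjusted p = 5.21e-07; -6.17, adjusted p = 0.00364 with all 3). Tgtp1 had 26.4, 1.66 and 24.2 CPM with Stattic, against 467, 346 and 421 CPM in None and Irgm1 30.6, 3.91 and 35 CPM with Stattic, against 295, 237 and 276 CPM in None, again with no overlap in any library. Their changes were -4.03 ± 0.23, adjusted p = 6.53e-07 (-4.55, adjusted p = 0.0168) and -3.04 ± 0.21, adjusted p = 1.93e-06 (-3.54, adjusted p = 0.0198). Tgtp2, which is nearly the same as Tgtp1 in sequence, so that reads may be split between them, fell by 3.69 (adjusted p = 1.43e-06). Gbp7, shown for its promoter and named after its value was seen, had 8.71, 66.1 and 10 CPM with Stattic, against 67.5, 82.3 and 68.1 CPM in None: replicates 1 and 3 were below None, and replicate 2 was just under the lowest None value (-2.96 ± 0.21, adjusted p = 2.00e-06; -1.37, adjusted p = 0.201). Gbp2, named after its value was seen, was the member not called (-0.55 ± 0.24, adjusted p = 0.0836). Tgtp2 passed the test with Stattic replicate 2 included too. For Gbp2 (log2 -1.05, adjusted p = 0.297), in brackets with all 3 Stattic libraries, there was no call in either fit.

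Promoters were searched for the letters of the interferon-gamma activated element (GAS, TTCNNNGAA) and of elements for IRF factors (GAAA repeated after a gap of any 2 bases), on both strands. The 250 bases before the start of 3 of the genes that fell are shown with every match in capitals, from RefSeq's GRCm38.p6 promoters, 5′ to 3′ on the coding strand.
Tgtp1, chr11:48992247-48992496, minus strand: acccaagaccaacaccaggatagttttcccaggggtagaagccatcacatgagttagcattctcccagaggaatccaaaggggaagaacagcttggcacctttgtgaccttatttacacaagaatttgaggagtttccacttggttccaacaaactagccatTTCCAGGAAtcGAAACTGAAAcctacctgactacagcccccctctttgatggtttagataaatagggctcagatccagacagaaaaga
Irgm1, chr11:48871421-48871670, minus strand: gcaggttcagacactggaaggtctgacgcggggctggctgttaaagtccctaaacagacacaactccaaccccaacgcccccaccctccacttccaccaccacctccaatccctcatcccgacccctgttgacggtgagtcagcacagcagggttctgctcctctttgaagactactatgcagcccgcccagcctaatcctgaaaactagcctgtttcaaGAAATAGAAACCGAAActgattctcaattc
Gbp7, chr3:142530086-142530335, plus strand: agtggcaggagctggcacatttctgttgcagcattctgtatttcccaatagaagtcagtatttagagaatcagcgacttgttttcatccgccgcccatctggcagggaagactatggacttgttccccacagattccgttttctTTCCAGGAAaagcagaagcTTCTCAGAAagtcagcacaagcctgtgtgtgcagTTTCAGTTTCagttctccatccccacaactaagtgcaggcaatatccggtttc
In Tgtp1 the GAS match begins 88 bases and the IRF-type match 77 bases before the start, without overlap. Irgm1 holds a pair of overlapping IRF-type matches and no GAS match in this window, and Gbp7 a pair of GAS matches and 1 IRF-type match, on the other strand. The IRF-type letters were in 9 of 11 promoters of the GTPase list (81.8%), against 3.19% of the 15814 promoters of tested genes, and the GAS letters in 54.5% against 7.06%. Among 574 promoters of all genes called at least 4-fold lower the shares were 6.1% and 12.7%. Across the table's 32851 promoters they were 3.44% and 8.3%. No match is a measured site.

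Other interferon-stimulated genes fell less uniformly. Of 31 tested, 16 were lower and 5 higher (median -1.29), and with all 3 Stattic libraries 2 were lower and none higher. Without Stattic replicate 2 the shares were 51.6% lower and 16.1% higher, against 18.9% and 20.1% of all genes. Irf1 had 76.8, 2.25 and 78.3 CPM with Stattic, against 379.9, 273 and 339 CPM in None (-2.10 ± 0.18, adjusted p = 6.97e-06; -2.65, adjusted p = 0.0914), and Parp14 had 32.2, 9.36 and 29.2 CPM with Stattic, against 152, 190.1 and 240.5 CPM in None (-2.66 ± 0.24, adjusted p = 1.02e-05; -3.04, adjusted p = 0.0105), both below None in every Stattic library. Rsad2, the antiviral protein viperin, was higher, with 7.13, 0 and 6.95 CPM with Stattic, against 0.4, 0.583 and 0.739 CPM in None (3.61 ± 0.33, adjusted p = 1.02e-05). In the antigen presentation list 10 of 15 were lower and none higher (0 higher and 5 lower with all 3 Stattic libraries). Nlrc5, the transactivator of MHC class I genes, had 45.1, 19.1 and 53.1 CPM with Stattic, against 175, 232 and 344 CPM in None (-2.35 ± 0.29, adjusted p = 7.53e-05; -2.68, adjusted p = 0.0133), and Tap1, a peptide transporter gene, fell by 1.38 (adjusted p = 0.000149). H2-Eb1, an MHC class II gene that B cells express, had 10.7, 15.1 and 5.28 CPM with Stattic, against 64.6, 46.3 and 36 CPM in None (-2.62 ± 0.38, adjusted p = 0.000215; -3.22 without Stattic replicate 1). B cell markers were lower in the same libraries, by the sums given above for the marker list, and their part in the class II change was not tested. Adding Stattic replicate 2 left no call for Rsad2 (log2 3.04, adjusted p = 0.15) and Tap1 (log2 -1.86, adjusted p = 0.0816). Called with that library as well was H2-Eb1.

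Many effector cytokine and chemokine genes fell (57.9% and 81.8% of those tested), against 18.9% of all genes called lower. Lta, lymphotoxin alpha, had 18.5, 11.7 and 12 CPM with Stattic, against 390, 349.5 and 288 CPM in None, with all 3 Stattic libraries far below None (-4.49 ± 0.24, adjusted p = 5.21e-07; -4.60, adjusted p = 0.00109 with all 3). Il2, the T cell growth factor, had 2.12, 6.87 and 1.46 CPM with Stattic, against 31.2, 112 and 17.9 CPM in None. None replicate 2 was the highest by far; the change was -4.90 ± 0.71, adjusted p = 0.000231 (-3.98, adjusted p = 0.0276), and -3.78 without that library. Csf2, which encodes GM-CSF, had 0.409, 0 and 0.365 CPM with Stattic, against 8.42, 16.1 and 4.72 CPM in None (-4.65 ± 0.59, adjusted p = 8.91e-05; -5.11, adjusted p = 0.0291). Ccl20, the chemokine of Th17 cells that draws CCR6-bearing cells, had 25.6, 1.9 and 18.5 CPM with Stattic, against 294, 293 and 222 CPM in None, with Stattic below None in all libraries (-3.61 ± 0.22, adjusted p = 1.21e-06; -4.12, adjusted p = 0.0168). Ccl3 had 37.5, 12.4 and 31.6 CPM with Stattic, against 168, 279 and 145 CPM in None (-2.52 ± 0.28, adjusted p = 3.72e-05) and Cxcl10 1.05, 4.74 and 0.634 CPM with Stattic, against 20.1, 17 and 13.5 CPM in None (-4.32 ± 0.43, adjusted p = 1.80e-05). Ccl4 changed by -3.55 ± 0.39, adjusted p = 3.20e-05, or -4.18 without Stattic replicate 1. Of 19 cytokine genes 11 were lower and none higher, and of 11 chemokine genes 9 were lower and none higher; with all 3 Stattic libraries 6 and 4 were lower. Ifng, named after its value was seen, changed by -3.69 ± 0.53, adjusted p = 0.000227, or by -3.05 without None replicate 2 and -4.38 without Stattic replicate 1. Gzmb, which Th17 cultures, CD8 T cells and NK cells can all express, had 407, 85.7 and 352 CPM with Stattic, against 958, 1364 and 742 CPM in None (-1.43 ± 0.27, adjusted p = 0.00127). Ccl4 (log2 -4.11, adjusted p = 0.0633) and Gzmb (log2 -1.86, adjusted p = 0.0686) were not called when Stattic replicate 2 was included. Ccl3, Cxcl10 and Ifng passed the test in that fit too.

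Th17 genes fell for the most part (61.1% lower and 22.2% higher, against 18.9% and 20.1% of all genes), with wide spread in None. Il17a (ENSMUSG00000025929, chromosome 1, 20730905 to 20734496 of GRCm38, plus strand) had 165, 10.7 and 134 CPM with Stattic, against 510.4, 1389 and 246 CPM in None. Stattic replicates 1 and 3 were below the lowest None library, but None itself was spread widely; the change was -2.26 ± 0.53, adjusted p = 0.00538, or -2.79, adjusted p = 0.0828 with all 3. Without None replicate 2 it was -1.34, and without Stattic replicate 3 the adjusted p was 0.0562. Il17f had 220.4, 61 and 185 CPM with Stattic, against 446, 976 and 217 CPM in None, with Stattic replicate 1 above None replicate 3. It was called (-1.43 ± 0.45, adjusted p = 0.0243) but lost the call without None replicate 2 (-0.71, adjusted p = 0.0711), Stattic replicate 1 (adjusted p = 0.0803) or Stattic replicate 3 (0.146). Rora, a nuclear receptor of Th17 cells, had 258, 53.2 and 364 CPM with Stattic, against 37.5, 122 and 49.8 CPM in None (2.16 ± 0.38, adjusted p = 0.000833; 2.83 without None replicate 2). Il21 had 169, 7.23 and 188 CPM with Stattic, against 386, 634 and 509 CPM in None (-1.51 ± 0.21, adjusted p = 0.000147) and Maf 157, 75.8 and 143 CPM with Stattic, against 319, 254 and 364 CPM in None (-1.06 ± 0.17, adjusted p = 0.000521; -1.32, adjusted p = 0.0481). Ccr6 changed by -2.56 ± 0.46, adjusted p = 0.000955, or -1.88 without None replicate 2. Il23r, a chain of the IL-23 receptor, had 13.2, 0 and 10.2 CPM with Stattic, against 10.1, 19.3 and 13.3 CPM in None, which overlapped (-0.28 ± 0.28, adjusted p = 0.445). Of 18 Th17 genes 11 were lower and 4 higher; with all 3 Stattic libraries 4 were lower and 2 higher. Not called with the outlying library included were Il17f (log2 -1.81, adjusted p = 0.0868), Rora (log2 1.69, adjusted p = 0.122) and Il21 (log2 -2.07, adjusted p = 0.135). The call was kept in that fit by Ccr6. For Il23r (log2 -0.85, adjusted p = 0.622), in brackets with all 3 Stattic libraries, there was no call in either fit.

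**Figure D4:**
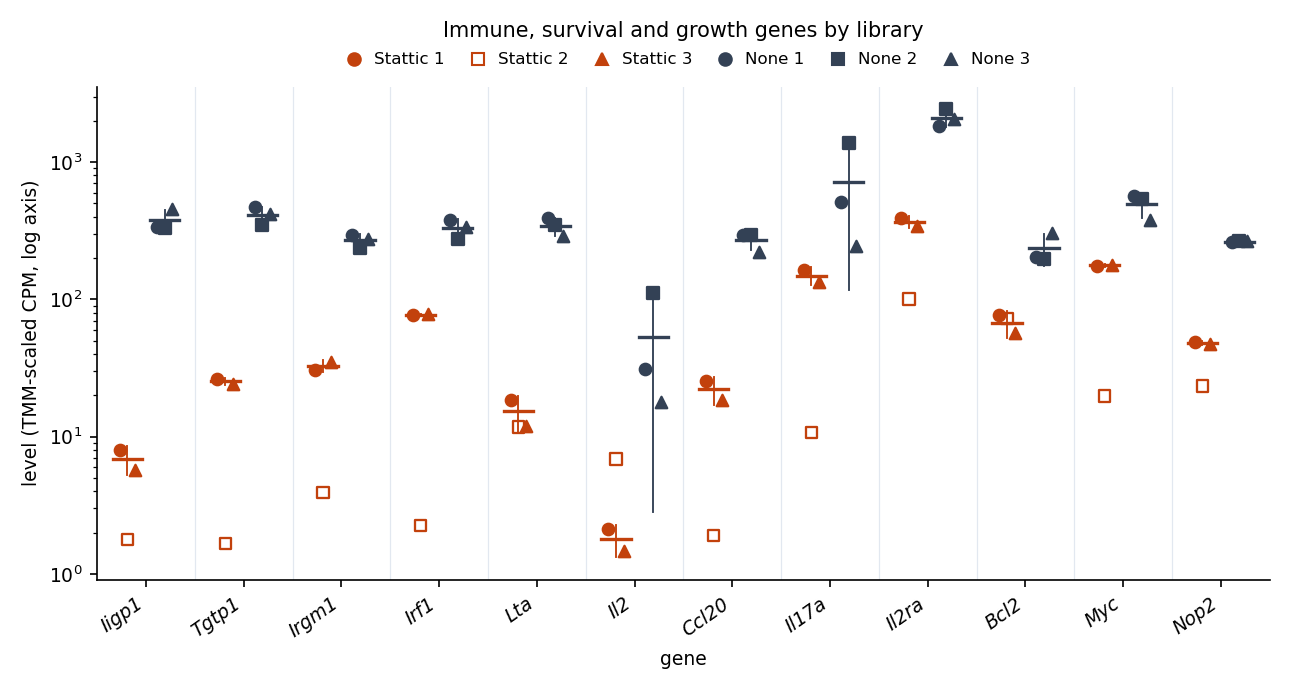
TMM-scaled CPM on a log axis for 12 immune, survival and growth genes in each of the 6 libraries (Stattic left of None for each gene), with the mean ± SD of Stattic replicates 1 and 3 and of the 3 None libraries; the open square is Stattic replicate 2. Stattic replicates 1 and 3 lie below all None libraries for each gene shown, and the None values of Il2 and Il17a are spread widely.

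Genes of T cell activation moved both ways. Il2ra, the high-affinity chain of the IL-2 receptor and a STAT5 target, had 393, 100.5 and 344 CPM with Stattic, against 1825, 2432 and 2069 CPM in None (-2.52 ± 0.20, adjusted p = 4.51e-06; -2.92, adjusted p = 0.016), with every Stattic library below None. Tbx21, the T-bet gene, had 26.6, 0 and 21.8 CPM with Stattic, against 117, 149.5 and 142 CPM in None (-2.50 ± 0.26, adjusted p = 2.63e-05), and Nfatc1 fell by 1.29 (adjusted p = 0.000142). Ctla4, an inhibitory receptor, had 1521, 79.3 and 1263 CPM with Stattic, against 538, 686 and 609 CPM in None; replicates 1 and 3 were above None and replicate 2 below it (1.19 ± 0.16, adjusted p = 0.000159; 0.64, adjusted p = 0.596). Of 19 activation genes 9 were lower and 5 higher, 2 higher without Stattic replicate 1 or without None replicate 3, and 3 without Stattic replicate 3 (0 higher and 4 lower with all 3 Stattic libraries). In the NF-kB list 12 of 21 were lower and 3 higher (0 higher and 2 lower with all 3 Stattic libraries), with falls of Cd83 by 2.31 (adjusted p = 4.66e-05) and of Icam1 by 1.73 (adjusted p = 9.95e-05). Of 19 T cell receptor complex genes 8 were lower and 2 higher; without Stattic replicate 3 the lower count was 3, and the higher count was 0 without Stattic replicate 1 and 1 without None replicate 2 or 3. That list had 0 higher and 0 lower with all 3 Stattic libraries. Without Stattic replicate 2 the shares lower were 47.4% for activation, 57.1% for NF-kB and 42.1% for receptor complex genes. The shares higher were 26.3%, 14.3% and 10.5%. Of all genes 18.9% were lower and 20.1% higher, and of protein-coding genes with a mean of at least 50 CPM 31.9% and 25.4%. Cd40, Fcer2a, Ms4a1 and Tnfrsf21 were among the 15 largest falls of genes with at least 5 CPM. Fcer2a, Ms4a1 and Pax5 are B cell markers, with changes of -5.26 ± 0.79, -4.20 ± 0.56 and -3.36 ± 0.35, and B cells express Cd40, which changed by -4.24 ± 0.35. Without Stattic replicate 1 the change was -6.24 for Fcer2a, -5.45 for Ms4a1 and -5.04 for Tnfrsf21, and without Stattic replicate 3 it was -3.54 for Ms4a1. Stattic replicate 2 was above every None library for Ms4a1 (25.5 CPM) and Tnfrsf21 (18.1 CPM), and with all 3 Stattic libraries neither was called (-1.14, adjusted p = 0.514, and -0.90, adjusted p = 0.621). The part of B cells in these falls was not tested. In the fit that includes Stattic replicate 2, Tbx21 (log2 -3.07, adjusted p = 0.118), Icam1 (log2 -2.31, adjusted p = 0.206) and Pax5 (log2 -3.90, adjusted p = 0.0575) did not pass the test. Nfatc1, Cd83, Fcer2a and Cd40 were called there too.

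Survival genes, which the title of the study names as its subject, changed in both directions. Bcl2 had 77.5, 72.9 and 56.9 CPM with Stattic, against 203, 197 and 307 CPM in None and Bcl2l1, which encodes BCL-XL, 42, 37.1 and 36.3 CPM with Stattic, against 131, 202 and 109 CPM in None. Both were below None in all 3 Stattic libraries, with Stattic replicate 2 at the level of the others, and both were called in either fit (-1.81 ± 0.26, adjusted p = 0.000224, then -1.77, adjusted p = 0.0159; -1.91 ± 0.24, adjusted p = 8.27e-05, then -1.94, adjusted p = 0.00946). Mcl1 had 772, 204 and 828 CPM with Stattic, against 409, 443 and 503 CPM in None, above None in replicates 1 and 3 and below it in replicate 2 (0.82 ± 0.17, adjusted p = 0.00237; 0.41, adjusted p = 0.581). Bcl2l11, which encodes the killer BIM, had 108, 34.5 and 146 CPM with Stattic, against 35.9, 36.1 and 40.4 CPM in None, with replicate 2 just under None (1.77 ± 0.21, adjusted p = 5.19e-05; 1.37, adjusted p = 0.0911). Bid, a BH3-only gene cut by caspase-8, had 5.65, 5.45 and 3.55 CPM with Stattic, against 28.2, 29.6 and 23.4 CPM in None (-2.56 ± 0.28, adjusted p = 3.55e-05), and Pmaip1, the NOXA gene, rose by 1.59 ± 0.18, adjusted p = 4.19e-05. The mitophagy receptors Bnip3 and Bnip3l rose by 2.23 ± 0.19 and 1.53 ± 0.16. Of 25 pro-apoptotic genes 9 were higher and 8 lower (5 lower without Stattic replicate 3), and of 14 anti-apoptotic genes 1 was higher and 4 were lower; without None replicate 2, 3 were higher, and without Stattic replicate 1, 2. Without Stattic replicate 2, 36% of the pro-apoptotic list were higher and 32% lower, and 7.14% and 28.6% of the anti-apoptotic list. Of all genes 20.1% were higher and 18.9% lower, and of protein-coding genes with a mean of at least 50 CPM 25.4% and 31.9%. The shares lower in both lists were thus near that of coding genes at such levels. The pro-apoptotic list had 0 higher and 2 lower with all 3 Stattic libraries, and the anti-apoptotic list 0 higher and 2 lower with all 3 Stattic libraries. The test was not passed with all 3 Stattic libraries by Pmaip1 (log2 1.11, adjusted p = 0.215), Bnip3 (log2 1.65, adjusted p = 0.419) and Bnip3l (log2 1.08, adjusted p = 0.191). Bid did pass it.

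Nearly all genes of ribosome assembly tested fell. Without Stattic replicate 2, 18.9% of all genes were lower and 20.1% higher. Of 32 ribosome biogenesis genes 30 were lower and none higher (median -1.92), and 20 were lower with all 3 Stattic libraries, against 2.87% of all genes. Nop2, a nucleolar rRNA methyltransferase, had 48.9, 23.5 and 46.9 CPM with Stattic, against 261, 265 and 265 CPM in None. The None libraries were nearly equal and all Stattic libraries were below them (-2.46 ± 0.19, adjusted p = 4.36e-06; -2.73, adjusted p = 0.00548). Rrs1 had 19.3, 2.96 and 17.3 CPM with Stattic, against 112, 141 and 114 CPM in None (-2.74 ± 0.19, adjusted p = 1.82e-06; -3.21, adjusted p = 0.0168), and Noc4l and Rrp1b fell by 2.26 (adjusted p = 4.57e-06) and 2.54 (adjusted p = 6.06e-06). Of 83 cytosolic ribosomal protein genes 58 were higher and none lower (median 0.75); none was called with all 3 Stattic libraries. That count rested on Stattic replicate 1: without it 9 were higher and 1 lower. Without None replicate 2 or 3, 1 was lower. Together the 83 genes had 101500, 43000 and 77110 CPM with Stattic, against 65000, 48070 and 52860 CPM in None. Rps24 had 2583, 1075 and 1979 CPM with Stattic, against 1156, 1026 and 1163 CPM in None (1.03 ± 0.19, adjusted p = 0.00123). Of 81 nuclear genes of the respiratory chain 27 were higher and 4 lower, but 3 were higher without Stattic replicate 1, 10 without None replicate 2 and 14 without None replicate 3, and the lower count ranged over 0 to 7 with 1 library left out (0 higher and 0 lower with all 3 Stattic libraries). Once Stattic replicate 2 was added, no call was left for Noc4l (log2 -2.81, adjusted p = 0.0781), Rrp1b (log2 -3.09, adjusted p = 0.0576) and Rps24 (log2 0.75, adjusted p = 0.233).

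A ribosomal RNA gene model, CT010467.1 (GENCODE type rRNA, chromosome 17), had 20410, 93000 and 18860 CPM with Stattic, against 9478, 6213 and 5838 CPM in None (1.45 ± 0.23, adjusted p = 0.000407), and the mitochondrial ribosomal RNA mt-Rnr2 had 3248, 5245 and 2536 CPM with Stattic, against 1387, 1353 and 1334 CPM in None (1.09 ± 0.19, adjusted p = 0.000778). Lars2, a mitochondrial leucyl-tRNA synthetase gene, had 4535, 18920 and 4077 CPM with Stattic, against 1486, 1152 and 1100 CPM in None (1.79 ± 0.20, adjusted p = 3.76e-05; 2.88, adjusted p = 0.0387). All 3 were higher in every Stattic library, most of all in replicate 2. The part of ribosomal RNA content in the ribosomal protein result was not tested. Adding Stattic replicate 2 left no call for CT010467.1 (log2 2.62, adjusted p = 0.074) and mt-Rnr2 (log2 1.44, adjusted p = 0.0699).

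More genes of DNA replication and mitosis were lower than higher. Rrm2, the inducible subunit of ribonucleotide reductase, had 63.9, 13.4 and 67.2 CPM with Stattic, against 168, 185 and 203 CPM in None (-1.50 ± 0.15, adjusted p = 1.60e-05), and Top2a, the mitotic topoisomerase, fell by 1.08 (adjusted p = 0.0019). Of 34 replication genes 10 (29.4%) were lower and 5 (14.7%) higher, and of 25 mitosis genes 9 (36%) were lower and none higher (1 mitosis gene higher without None replicate 1). Of all genes 18.9% were lower and 20.1% higher. Protein-coding genes were lower in 35.4% and higher in 18.9% at a mean of 5 to 50 CPM, and in 31.9% and 25.4% from 50 CPM. The shares lower in both lists were thus near those of coding genes at such levels. Without Stattic replicate 3, 5 replication genes were lower and 3 higher, and without Stattic replicate 1, 3 were higher. No gene of either list was called with all 3 Stattic libraries. Of 61 histone genes tested 25 were higher and none lower, with 12 higher without Stattic replicate 3, 16 without None replicate 3 and 4 with all 3 Stattic libraries. Their levels were low, and the list summed to 117, 1136 and 121 CPM with Stattic, against 51.1, 40.3 and 37.3 CPM in None. Actb, cytoplasmic actin and a common reference gene, had 810.1, 633 and 678 CPM with Stattic, against 3517, 2537 and 2353 CPM in None, below None in all Stattic libraries (-1.92 ± 0.21, adjusted p = 3.11e-05; -1.99, adjusted p = 0.0154). Rrm2 (log2 -1.94, adjusted p = 0.0521) and Top2a (log2 -1.52, adjusted p = 0.0991) were not called when Stattic replicate 2 was included.

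In the glycolysis and hypoxia list 16 of 25 were higher and 2 lower; without Stattic replicate 3 or None replicate 2, 1 was lower (2 higher and 0 lower with all 3 Stattic libraries). Slc2a3, the GLUT3 glucose transporter, had 424, 38.6 and 354 CPM with Stattic, against 70, 79.6 and 74.2 CPM in None (2.38 ± 0.18, adjusted p = 3.72e-06), Ndrg1 rose by 2.93 ± 0.34, adjusted p = 4.56e-05 and Ankrd37 by 1.97 ± 0.22, adjusted p = 4.18e-05, whereas Hk2, a hexokinase, fell by 1.54 (adjusted p = 0.000613). In the cholesterol synthesis list 14 of 25 were higher and 3 lower (1 higher and 0 lower with all 3 Stattic libraries). No member was lower without None replicate 3 or without Stattic replicate 3, and 1 was without None replicate 2. Msmo1, a sterol demethylase, had 229, 53.8 and 209.9 CPM with Stattic, against 52.6, 63.4 and 75 CPM in None (1.78 ± 0.17, adjusted p = 1.27e-05), and Hmgcs1 rose by 1.28 ± 0.17, adjusted p = 0.000141. Of 29 autophagy and lysosome genes 18 were higher and 1 lower, which was not called without Stattic replicate 3; there were 4 higher and 0 lower with all 3 Stattic libraries. Gla, the lysosomal alpha-galactosidase, had 131, 64 and 162 CPM with Stattic, against 7.86, 8.01 and 8.71 CPM in None, with no overlap in any library (4.16 ± 0.18, adjusted p = 2.12e-07; 3.86, adjusted p = 0.00364). Map1lc3b, the LC3B gene, had 288, 31.5 and 335 CPM with Stattic, against 74.5, 43.7 and 56.8 CPM in None (2.41 ± 0.20, adjusted p = 5.30e-06), and Ctsl, a cathepsin, rose by 2.69 ± 0.23, adjusted p = 7.30e-06, with 2.79, adjusted p = 0.00482 when all 3 Stattic libraries were used. Not called with the outlying library included were Slc2a3 (log2 1.87, adjusted p = 0.104), Ankrd37 (log2 1.39, adjusted p = 0.447), Hk2 (log2 -1.99, adjusted p = 0.0619), Msmo1 (log2 1.37, adjusted p = 0.096), Hmgcs1 (log2 0.83, adjusted p = 0.293) and Map1lc3b (log2 1.90, adjusted p = 0.101). The call was kept in that fit by Ndrg1. Without Stattic replicate 2, 64% of the glycolysis and hypoxia list, 56% of the cholesterol list and 62.1% of the autophagy list were higher. Their shares lower were 8%, 12% and 3.45%. Of all genes 20.1% were higher and 18.9% lower.

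Gene classes differed in the direction of their calls. Long noncoding genes were called higher in 25.3% of 3492 tested and lower in 4.67%, with a median change of 1.11, whereas protein-coding genes were higher in 19.5% of 14757 and lower in 25% (median -0.12). Most noncoding genes were near silent: 2563 of the 3492 had a mean under 1 CPM. Between 5 and 50 CPM, 35.1% of 231 long noncoding genes were higher and 26% lower, against 18.9% and 35.4% of 5366 protein-coding genes in that range. The share called higher was 32.2% for the 853 noncoding genes that overlap a coding gene on the same strand and 21.2% for the 1492 whose nearest upstream coding gene on that strand is more than 50 kb away. The sources used here do not say whether counting used strand, so reads of overlapping genes cannot be told apart. By gene span, protein-coding genes under 2 kb were called higher most often (27.2% of 489) and those of 20 to 50 kb lower most often (30.5% of 3982). Their levels differed too, with medians of 1.34 CPM under 2 kb and 24.9 CPM at 20 to 50 kb. The part of level in the span result was not tested. The many C2H2 zinc finger genes of the Zfp series fell more often than they rose. Of 369 tested, 153 (41.5%) were lower and 51 (13.8%) higher, with a median of -0.70. The shares of protein-coding genes between 5 and 50 CPM, given above, were 35.4% lower and 18.9% higher. With all 3 Stattic libraries 8 Zfp genes were higher and 8 lower. Zfp933 fell by 3.14 (adjusted p = 5.30e-06) and Zfp703 rose by 2.28 ± 0.15, adjusted p = 1.71e-06. Of the Clk splicing kinases, Clk1 (2.12 ± 0.18, adjusted p = 7.07e-06), Clk3 (1.27 ± 0.16) and Clk4 (1.41 ± 0.19) rose and Clk2 fell by 1.22 (adjusted p = 8.61e-05). In the fit that includes Stattic replicate 2, Zfp933 (log2 -3.67, adjusted p = 0.0566), Zfp703 (log2 1.83, adjusted p = 0.0664), Clk1 (log2 1.74, adjusted p = 0.0539), Clk3 (log2 0.73, adjusted p = 0.509), Clk4 (log2 0.83, adjusted p = 0.701) and Clk2 (log2 -1.60, adjusted p = 0.053) did not pass the test.

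The effect of Stattic was also measured in cells that had Kira8, by libraries that share none with the comparison above (3 Kira8+Stattic and 2 Kira8, leaving out Kira8 replicate 2, which stood apart with 61.5% mitochondrial counts). There 6514 of 21239 genes were called (30.7%), 3116 higher (14.7%) and 3398 lower (16%). Of the 4270 genes higher with Stattic alone, 2037 (47.7%) were also higher there and 90 (2.11%) lower; these 2037 are 65.4% of the genes higher there. Of the 4011 lower genes, 2154 (53.7%) were also lower and 80 (1.99%) higher, and these 2154 are 63.4% of the genes lower there. A test of the difference between both Stattic effects called 1810 of 21239 genes (8.52%), with the change more positive with Kira8 for 4.55% and more negative for 3.97%, among them 593 of the higher and 777 of the lower genes. Median changes of the higher genes were 0.97 with Kira8 and 1.66 without it, and of the lower genes -0.71 and -1.18; since these genes were chosen by the change without Kira8, the second value of each pair is large by choice. Without Kira8 replicate 1 or 3 the calls fell to 1571 and 1351 higher and 2008 and 1919 lower.

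Heat shock genes and interferon-inducible GTPases changed in both settings. With Kira8, 20 of 25 heat shock genes were higher and 1 lower, and 17 of 18 GTPases were lower. Hspa1b had 11570, 20860 and 28490 CPM in Kira8+Stattic replicates 1, 2 and 3, against 127 and 274 CPM in Kira8 replicates 1 and 3, a change of 6.66 ± 1.00. For Bag3 the change was 3.94, for Tgtp1 -3.77 and for Il2ra -2.54, next to 4.43, -4.03 and -2.52 without Kira8. Th17 genes were lower in 7 of 18 and higher in 2, against 11 and 4 without Kira8. With Kira8, Il17a (0.10 ± 0.49, adjusted p = 0.905) and Il17f (0.51 ± 0.43, adjusted p = 0.402) were not called. Their Stattic changes did not differ between the settings by the test (adjusted p = 0.0637 and 0.0769). Socs3 rose with Kira8 (0.70 ± 0.18, adjusted p = 0.0104), a difference not called either (adjusted p = 0.055). Ribosome biogenesis genes were lower in 14 of 32 and higher in 2, against 30 and 0 without Kira8, and B cell markers were lower in 3 of 13, against 12 of 13. Of all genes 16% were lower and 14.7% higher with Kira8, against 18.9% and 20.1% without it. Nop2 averaged 45 CPM in Kira8+Stattic and 82.1 CPM in Kira8, next to 47.9 CPM with Stattic and 264 CPM in None, and its Stattic change differed between the settings (adjusted p = 0.00465). Lta averaged 17 CPM in Kira8+Stattic and 62.2 CPM in Kira8, next to 15.2 CPM with Stattic and 342 CPM in None. For both genes the levels with Stattic lay close together in the 2 settings, and the levels without Stattic lay apart.

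**Figure D5:**
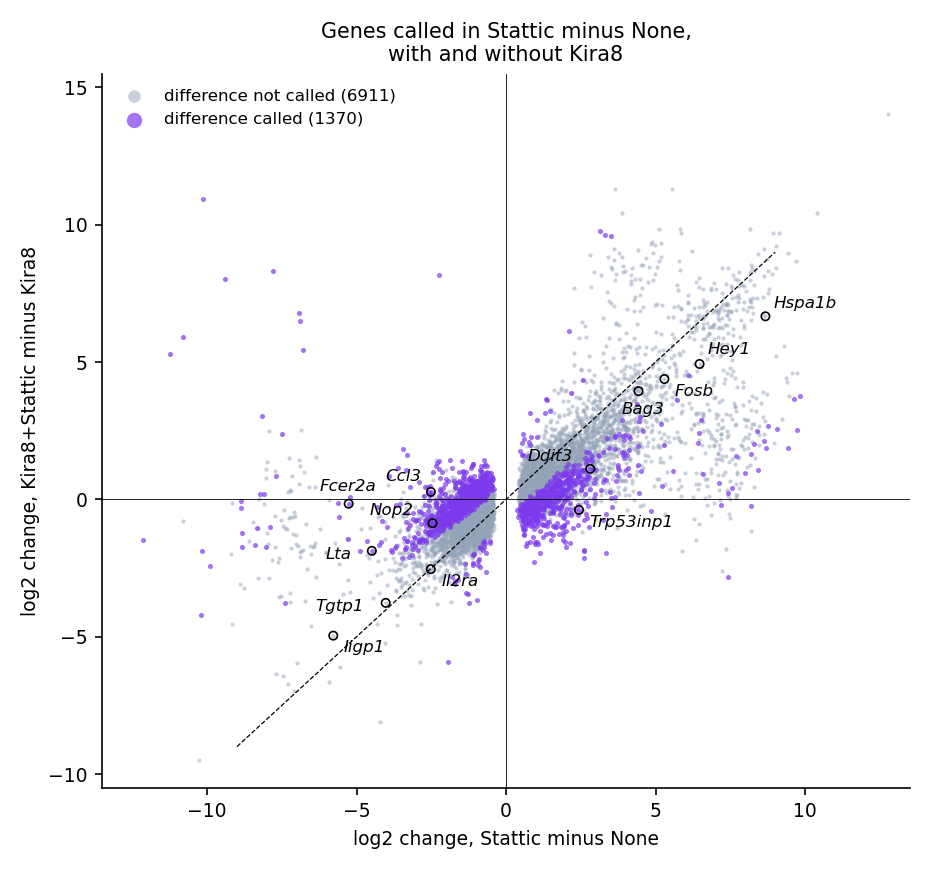
Each point is 1 of the 8281 genes called in Stattic minus None without Stattic replicate 2, with that log2 change on the horizontal axis and the log2 change of Kira8+Stattic minus Kira8 on the vertical axis; the dashed line marks equal changes. Of the 1370 genes whose changes differed by the test, 685 changed less with Kira8 in the same direction, 632 had the opposite sign and 53 changed more. These counts go by sign alone. Among all 8281 genes, 90 higher and 80 lower with Stattic alone were called in the opposite direction with Kira8.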

How the data were processed

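Gene counts of 12 RNA-seq libraries were used as the authors deposited them: whole-number read counts per gene, not normalized, from Trizol total RNA, per the labels' protocols. The build was mm10, per the submitters' processing notes; the aligner, the counter and the strand setting are not named in the sources used here. All columns were mapped by name to samples. Symbols and gene types came from GENCODE M21 for 55141 of 55401 genes.

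Counts were tested with edgeR 4.0.16 (R 4.3.3) by quasi-likelihood, with filterByExpr, TMM scaling and Benjamini-Hochberg adjustment over all genes tested, in 1 fit of 11 libraries (without Kira8 replicate 2) and 1 of 10 (also without Stattic replicate 2), with 1 coefficient per group. Standard errors were derived from the F statistic. Genes named were 28 followed throughout, the 15 largest called changes each way among genes of at least 5 CPM with no overlap and no Gm or Rik symbol, the 10 most abundant that changed at least 2-fold, and up to 4 per list in its main direction and 1 in the other by adjusted p; not all of them are described, and others are marked. The members and all 49 lists were chosen with earlier results of these data known. Alternatives were DESeq2 1.42.0, limma 3.58.1 voom, other scalings and filters, a replicate block and leaving out each library. Some genes are not reported here. Floors of 3 counts cover counting error only; standard errors include the scatter among libraries.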

Additional observations from a re-analysis of the deposited data

Results flagged for a closer look

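The effect of Stattic differed between cells with and without Kira8 for a subset of the genes named above. Listed are those whose difference, a log2 change with Kira8 minus one without, passed an adjusted p of 0.01 by edgeR's test of the difference itself and reached 1 on the log2 scale. Of 144 genes named, 27 met both. In all 27 the change with Kira8 was smaller or of the opposite sign, and in none was it larger. Many of these genes were named for their change without Kira8, a choice that favours this direction. How far that choice accounts for it was not tested.

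Among genes higher with Stattic alone, the differences were Dusp8 (-3.23), Ndrg1 (-2.89), Trp53inp1 (-2.82), Klf4 (-2.08), Gla (-1.92), Sqstm1 (-1.85), Ddit3 (-1.70), Clk1 (-1.64), Rasgef1b (-1.59), Ppp1r15a (-1.57), Ddit4 (-1.54), Pmaip1 (-1.40) and Msmo1 (-1.30). For Dusp8 the Stattic change was 0.26 with Kira8, against 3.49 without it, and for Trp53inp1 it was -0.38, against 2.44. Neither change with Kira8 passed the test (adjusted p = 0.6 for Dusp8 and 0.12 for Trp53inp1). Dusp8 averaged 12.3 CPM in Kira8+Stattic and 10.3 CPM in Kira8, next to 9.05 CPM with Stattic and 0.806 CPM in None. Klf4, by contrast, averaged 116 CPM in Kira8+Stattic and 20.5 CPM in Kira8, next to 113 CPM with Stattic and 4.69 CPM in None. Trp53inp1 averaged 950.3 CPM in Kira8+Stattic and 1238 CPM in Kira8, next to 957 CPM with Stattic and 176 CPM in None.

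Among genes lower with Stattic alone, the differences were Nop2 (1.59), Rrp1b (1.76), Pdia4 (1.89), Tbx21 (1.91), Noc4l (1.93), Gzmb (2.00), Rrs1 (2.23), Il10 (2.41), Pax5 (2.54), Cd40 (2.58), Lta (2.62), Ccl3 (2.79), Ccl4 (3.38) and Tnfrsf21 (3.39). Of these, the Stattic change had the opposite sign with Kira8 for Pdia4 (0.32, against -1.57 without it), Gzmb (0.57, against -1.43), Il10 (0.68, against -1.73) and Ccl3 (0.27, against -2.52). With Kira8 the change did not pass the test for Pdia4 (adjusted p = 0.214), Gzmb (0.117) or Ccl3 (0.459), so a reversal is not shown for them. Ccl3 averaged 19 CPM in Kira8+Stattic and 15.7 CPM in Kira8, next to 34.5 CPM with Stattic and 197 CPM in None. Gzmb averaged 125 CPM in Kira8+Stattic and 84.5 CPM in Kira8, next to 379 CPM with Stattic and 1021 CPM in None. Pax5 and Cd40 are expressed by B cells, whose marker sums are given above; their part in these differences was not tested.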

How the results depend on the processing

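The comparison without Stattic replicate 2 gave similar counts under DESeq2, both limma voom fits, other size factors and both other filters. With all 3 Stattic libraries the counts depended on the method. They were 3350 higher and 2129 lower with DESeq2, 946 and 1112 with limma voom, 4297 and 3704 with voom and library quality weights, 892 higher with RLE size factors, 140 and 289 with no filter, and 1419 and 961 when genes needed over 1 CPM in at least 3 libraries. Fitted on the Stattic and None libraries only, edgeR called 0 higher and 0 lower, with 3105 genes at an unadjusted p under 0.05. Keeping Kira8 replicate 2 gave 22 higher and 43 lower, and 290 higher and 354 lower without Stattic replicate 2. Leaving out 1 further library gave 34 to 1336 higher and 65 to 771 lower with all 3 Stattic libraries, and 2889 to 4497 higher and 2645 to 4152 lower without Stattic replicate 2. For Kira8+Stattic minus Kira8 the ranges were 1351 to 2743 higher and 1919 to 3286 lower. DESeq2 called 1705 and 1474 genes for the difference of the Stattic effects. The share of called genes that were higher, 47.4% with all 3 Stattic libraries, was 61.1% with DESeq2, 37.8% with library size alone, 32.6% with no filter and 59.6% with the CPM filter. Correlations of the deviations of same-numbered libraries from their group means were 0.0242, -0.0336 and 0.0671. The Stattic mean included the outlying replicate 2, so these values cannot decide whether replicate numbers pair the samples. With the replicate block the counts were 126 and 197 with all 3 Stattic libraries and 4103 and 3959 without Stattic replicate 2. The cause of these shifts was not tested.

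Gclm and Txnrd1, neither of them called, changed sign: Gclm was -0.078 with library size alone, 0.29 and -0.16 without Stattic replicates 1 and 3 and -0.17 with all 3 Stattic libraries, and Txnrd1 was 0.02 without None replicate 2 and 0.18 and -0.52 without Stattic replicates 1 and 3. Of 137 called genes named, 68 kept the call under every alternative to the comparison without Stattic replicate 2, and 64 kept it with all 3 Stattic libraries. The 69 that lost it in some alternative all did so when Kira8 replicate 2 was kept in the fit. None lost it under DESeq2 or under limma voom without quality weights. Low counts in Stattic replicate 2 limit what its values can show, and 2 Stattic libraries give few degrees of freedom of their own.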
